A study of Mus musculus with 8 samples.

Results

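The enzymes described here remove superoxide and peroxides or repair the damage these leave on proteins, and they were followed in spleen neutrophils with and without Cxcr2. The group holds 10 genes chosen by name: the peroxiredoxins Prdx1 to Prdx6, catalase (Cat), the superoxide dismutases Sod1 and Sod2, and the methionine sulfoxide reductase Msrb1. All 10 were found among the 55414 gene identifiers counted in the series, and all 10 passed the filter on low counts, which kept 16778 genes. Msrb1 stands a little apart from the name of the group, since it does not break down peroxide itself but reverses an oxidation that peroxide causes.

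The data are RNA-seq counts from 8 libraries, 4 of WT and 4 of Cxcr2-/- mice, all on the FVB background, 10 weeks old and kept in the same specific and opportunistic pathogen-free (SOPF) housing. Cxcr2-/- mice lack the receptor for the chemokines that draw neutrophils out of the bone marrow, and were backcrossed to FVB. Spleen cells were enriched on CD11b and sorted as CD45+ CD11b+ Ly6G+ F4/80- neutrophils, so that neutrophils of every stage that carries Ly6G could enter a library. Each genotype was represented by 4 animals, and the replicates are numbered 1 to 4.

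Neutrophils make superoxide on purpose, through the NADPH oxidase, to kill microbes. Superoxide dismutases turn it into hydrogen peroxide, in the cytosol (Sod1) and in the mitochondrial matrix (Sod2). Catalase, in peroxisomes, and the peroxiredoxins then reduce the peroxide, the latter with a reactive cysteine that is mostly restored by thioredoxin. The oxidised methionine that escapes is reduced again by the methionine sulfoxide reductases, of which Msrb1 is the selenium-dependent form of cytosol and nucleus.

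Msrb1 is the 1 enzyme of the 10 whose annotated coding sequence holds an in-frame TGA, read as selenocysteine, at codon 95 of 116. It is shown because this codon ties Msrb1 to the selenoprotein genes described further on (GENCODE M21, build GRCm38, chr17:24740146-24740172, plus strand, coding exon, the TGA in capitals):
Msrb1: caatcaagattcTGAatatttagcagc

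Promoters are shown for the 5 enzymes whose RNA differed between the genotypes, 3 higher and 2 lower in Cxcr2-/- neutrophils. The RefSeq promoters used here, 250 bases before to 50 bases after the start on build GRCm38.p6, covered 9 of the 10 enzymes, all but Prdx6. Capitals mark 5 motifs searched on both strands, namely the antioxidant response element core TGACNNNGC, the GC box GGGCGG, the pentamer CCAAT, the E-box CACGTG and the TATA box TATAAA. Neighbouring GC boxes may share letters. The sequences stand at chr19:6910057-6910356, minus strand (Prdx5), chr4:116685349-116685648, plus strand (Prdx1), chr19:60874489-60874788, minus strand (Prdx3), chr17:24736343-24736642, plus strand (Msrb1) and chr16:90220512-90220811, plus strand (Sod1):
Prdx5: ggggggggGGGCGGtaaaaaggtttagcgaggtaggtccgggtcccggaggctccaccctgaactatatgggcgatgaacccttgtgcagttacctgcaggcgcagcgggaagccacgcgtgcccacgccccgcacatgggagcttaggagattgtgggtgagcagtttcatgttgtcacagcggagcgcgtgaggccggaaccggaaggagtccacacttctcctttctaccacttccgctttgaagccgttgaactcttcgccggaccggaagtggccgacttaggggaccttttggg
Prdx1: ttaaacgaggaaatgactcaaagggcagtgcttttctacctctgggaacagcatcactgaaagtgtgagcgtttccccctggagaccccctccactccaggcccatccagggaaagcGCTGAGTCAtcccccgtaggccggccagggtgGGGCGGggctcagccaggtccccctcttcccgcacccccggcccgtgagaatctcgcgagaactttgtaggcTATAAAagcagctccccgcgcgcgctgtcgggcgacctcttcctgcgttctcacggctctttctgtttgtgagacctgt
Prdx3: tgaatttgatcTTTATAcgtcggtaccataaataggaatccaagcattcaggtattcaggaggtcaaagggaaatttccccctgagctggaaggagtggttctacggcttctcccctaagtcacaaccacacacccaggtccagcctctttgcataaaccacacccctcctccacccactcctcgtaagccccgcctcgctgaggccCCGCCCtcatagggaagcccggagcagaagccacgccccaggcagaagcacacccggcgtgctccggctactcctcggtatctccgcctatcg
Msrb1: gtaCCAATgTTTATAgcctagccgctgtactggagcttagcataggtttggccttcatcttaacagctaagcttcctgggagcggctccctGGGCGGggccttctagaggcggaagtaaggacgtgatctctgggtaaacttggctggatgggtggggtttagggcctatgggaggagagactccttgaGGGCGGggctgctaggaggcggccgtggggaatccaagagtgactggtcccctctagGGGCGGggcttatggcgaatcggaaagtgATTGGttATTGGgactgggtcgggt
Sod1: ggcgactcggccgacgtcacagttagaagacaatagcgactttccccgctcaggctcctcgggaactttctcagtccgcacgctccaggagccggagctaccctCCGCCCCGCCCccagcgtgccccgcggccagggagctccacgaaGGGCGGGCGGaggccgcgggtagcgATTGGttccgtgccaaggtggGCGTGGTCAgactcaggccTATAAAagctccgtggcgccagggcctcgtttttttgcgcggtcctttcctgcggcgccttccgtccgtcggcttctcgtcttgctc

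All 9 promoters held a GC box, against 35.9% of 27025 RefSeq promoters and 60.5% of the 10467 promoters of genes tested here. The antioxidant response element core, the letters bound by Nrf2, was found in Prdx1 and Sod1, that is in 2 of 9, against 12.5% of all promoters and 14.9% of those of tested genes. The letters TATAAA, counted on either strand and anywhere in the window, were found in Prdx1, Prdx3, Sod1 and Msrb1. The shares were 14.2% of all promoters and 7.35% of those of tested genes. In Prdx3 and Msrb1 the match read TTTATA, near the first printed base, so there it is a match of the letters only. Of the motifs searched, the Prdx5 window held the GC box only. CCAAT was found in 5 of the 9, with 4 matches in Cat and 3 in Msrb1, against 37.9% of all promoters and 38.7% of those of tested genes. CACGTG was found in Prdx4, against 7.24% of all promoters and 9.95% of those of tested genes. The 9 windows were 57.0 to 68.7% G and C, against a median of 52.7% over all promoters. Of the 5 windows printed, CCAAT was in Sod1 and Msrb1, which fell. It was also in Prdx4, Cat and Sod2, which did not pass the test, at log2 fold changes of -0.07, 0.32 and 0.17. The response element core was in Prdx1, which rose, and in Sod1, which fell. A link between motifs and changes in RNA was not tested.

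Between 34220182 and 46233555 read pairs fell on genes in each WT library and between 37549648 and 43789253 in each Cxcr2-/- library, so depth did not separate the genotypes. The share of pairs outside annotated genes was mostly higher in WT, at 31.4 to 41.5% against 26.7 to 31.9% in Cxcr2-/- libraries, and the ranges overlapped by WT library 1 only. Cxcr2 itself stood at 1956 ± 221 counts-per-million (CPM; SD, n = 4) in WT and at 17.1 ± 3.46 CPM in Cxcr2-/- neutrophils, so each library matched its label. The genotypes also differed in markers of neutrophil stage: all 11 markers of immature neutrophils and 10 of 11 cell cycle genes were higher in Cxcr2-/- libraries. Summed, the immature markers stood at 21994 to 26794 CPM in WT and 51616 to 74110 CPM in Cxcr2-/-, and the cell cycle genes at 372 to 418 and 1006 to 1114 CPM. Of 10 mature neutrophil markers, 6 were higher and 4 lower, with Cxcr2 itself among the lower. Their sum was also higher in Cxcr2-/-, at 36953 to 53430 CPM in WT and 70186 to 83811 CPM in Cxcr2-/- libraries.

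Markers of other spleen cells were low in both genotypes beside the immature and mature neutrophil markers. The B cell, T cell and macrophage lists each still summed to more than the level of most single enzymes. The 8 B cell markers summed to 178 to 496 CPM in WT and 77.8 to 216 CPM in Cxcr2-/- libraries, with 6 of them lower. The 7 T cell markers summed to 97.3 to 118 and 90.9 to 139 CPM, most of it Cd3d. The 11 macrophage and monocyte markers summed to 754 to 881 and 890 to 1037 CPM, with Ly6c2 and Ccr2 higher and Adgre1 and Csf1r lower. The erythroid list stood at 20.6 to 30.04 and 20.3 to 38.4 CPM with none of the 7 tested markers past the test. The list for eosinophils, basophils and mast cells stood at 48.8 to 69.5 and 38.2 to 64.7 CPM, with 3 of 5 tested markers higher and 2 lower. In RNA from a sorted population, more cells of a stage and more RNA per cell cannot be told apart, and the part of neutrophil stage in the differences below was not tested.

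Quasi-likelihood tests of edgeR, two-sided and adjusted by Benjamini-Hochberg over the 16778 genes, called 5 of the 10 enzymes at an adjusted p under 0.05. Prdx5, Prdx1 and Prdx3 were up-regulated in Cxcr2-/- spleen neutrophils, and Msrb1 and Sod1 were down-regulated. The background is high, since 44.7% of all tested genes passed, 23.7% higher and 21% lower, so 5 of 10 enzymes is near the background share. With a change of at least 1.5-fold as well, 4 enzymes were called, 3 higher and 1 lower (Msrb1), where 31.3% of all genes were called, 15.7% in each direction. The libraries of the genotypes did not overlap for 4 enzymes, Prdx5, Prdx3, Msrb1 and Sod1, where 41.6% of all genes did not overlap, 22.5% higher and 19.1% lower in Cxcr2-/-. The median log2 fold change of the 10 enzymes was 0.24, against 0.01 over all tested genes. Upper-quartile scaling turned the split of all genes from 3969 higher and 3526 lower to 3076 higher and 4391 lower. Among the enzymes that scaling lost Prdx1, which then had an adjusted p of 0.0507, and added Prdx6 on the lower side.

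**Figure D1:**
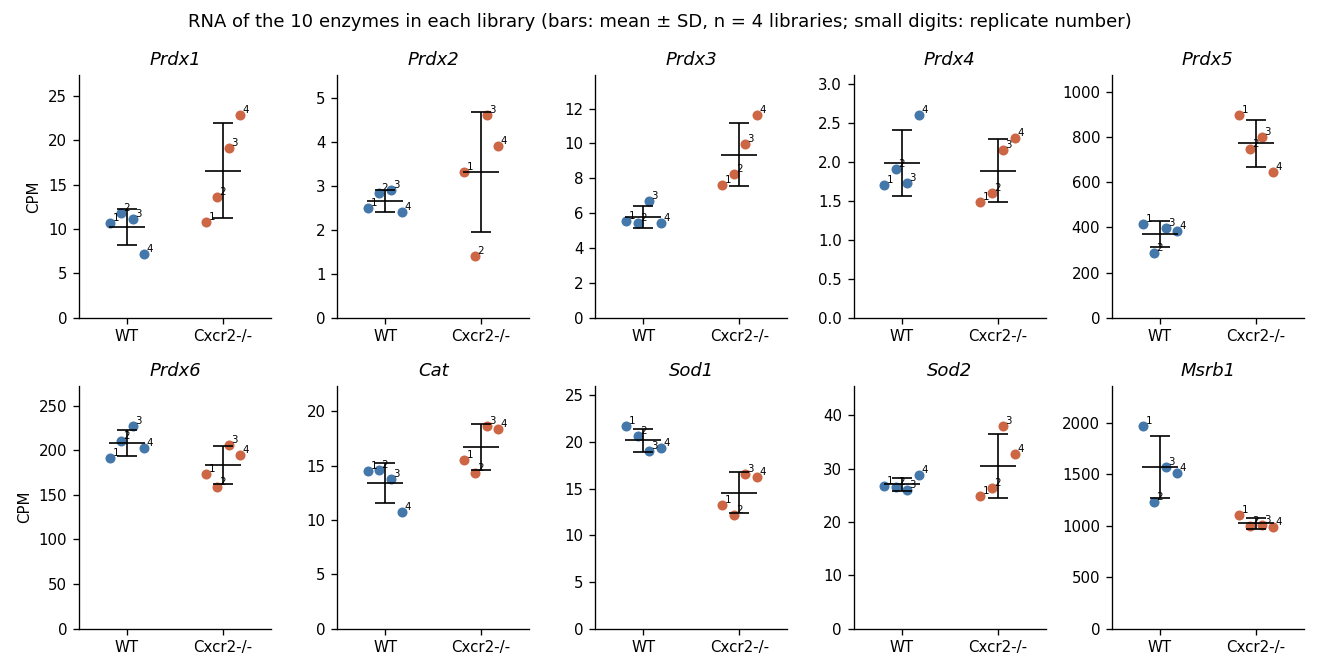
Level of each enzyme in CPM (vertical axis from 0, scaled for each gene) in the 4 WT and 4 Cxcr2-/- libraries; each point is 1 library, digits are replicate numbers, and the bar and whiskers are the mean ± SD. The genotypes are apart without overlap for Prdx3, Prdx5, Sod1 and Msrb1, and in Prdx1 the Cxcr2-/- libraries spread from 10.8 to 22.8 CPM.

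Msrb1 and Prdx5 carried most of the RNA of the group, and they moved in opposite directions. Msrb1 (ENSMUSG00000075705, chromosome 17, 24736642 to 24742778, plus strand) stood at 1970, 1231, 1574 and 1516 CPM in WT libraries 1 to 4, and at 1102, 995, 1005 and 992 CPM in Cxcr2-/- libraries 1 to 4. Every WT library was above every Cxcr2-/- library, and the Cxcr2-/- libraries lay close together, with a coefficient of variation of 5.14% against 19.3% in WT. The means were 1573 ± 304 and 1023 ± 52.6 CPM (SD, n = 4), that is 1.54-fold lower in Cxcr2-/- neutrophils (log2 fold change -0.62, SE 0.14, edgeR adjusted p = 0.00251). Msrb1 passed the test in all 20 other settings tried, at log2 fold changes of -0.97 to -0.49.

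Prdx5, a peroxiredoxin of mitochondria, peroxisomes and cytosol, was the enzyme that rose most (ENSMUSG00000024953, chromosome 19, 6906697 to 6910106, minus strand). It stood at 416, 286, 398 and 384 CPM in WT and at 895, 744, 799 and 645 CPM in Cxcr2-/- libraries. The lowest Cxcr2-/- library was well above the highest WT library. The means were 371 ± 58.4 and 771 ± 105 CPM, 2.08-fold higher in Cxcr2-/- neutrophils (log2 fold change 1.06, SE 0.14, edgeR adjusted p = 5.96e-05). It too passed in all 20 other settings, at 0.78 to 1.13, with the lowest value and the highest adjusted p, 0.0351, where the share of read pairs outside genes was a covariate.

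Set against each other within a library, there were 4.73, 4.31, 3.96 and 3.95 counts of Msrb1 for each count of Prdx5 in WT libraries 1 to 4. In Cxcr2-/- libraries there were 1.23, 1.34, 1.26 and 1.54. Msrb1 therefore held more counts than Prdx5 in each library, by a much smaller margin without Cxcr2. These counts, and the CPM shares that follow, are not corrected for gene length. Of the summed CPM of the 10 enzymes, Msrb1 made up 70.4% in WT and 49.4% in Cxcr2-/- neutrophils, Prdx5 16.6% and 37.2%, and Prdx6 9.32% and 8.86%. The sum itself was 2233 ± 350 CPM with Cxcr2 and 2070 ± 141 CPM without it, and the ranges overlapped. Without Msrb1 the sum was 660 ± 56.7 and 1047 ± 97.2 CPM, and the 6 peroxiredoxins alone summed to 600 ± 57.4 and 985 ± 97.7 CPM. No test was made of these sums, which follow the genes of the highest level.

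**Figure D2:**
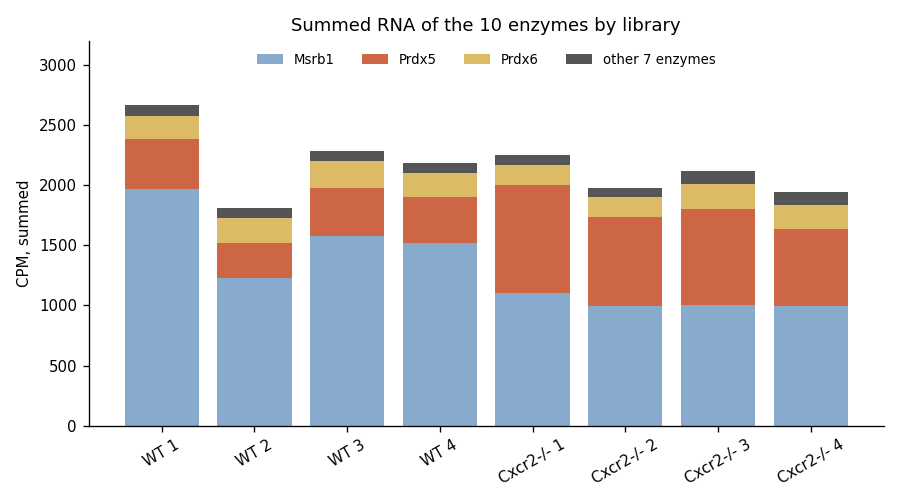
Stacked bars of the CPM of Msrb1, Prdx5, Prdx6 and the other 7 enzymes in each of the 8 libraries (vertical axis, summed CPM). The bars have similar heights in both genotypes, from 1811 to 2661 CPM, while the Prdx5 segment is larger and the Msrb1 segment smaller in Cxcr2-/- libraries.

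The other peroxiredoxins fell into 2 that rose and 3 that did not pass the test. Prdx3, the peroxiredoxin of the mitochondrial matrix (ENSMUSG00000024997, chromosome 19, 60864051 to 60874556, minus strand), stood at 5.57, 5.43, 6.71 and 5.41 CPM in WT and at 7.61, 8.27, 9.96 and 11.6 CPM in Cxcr2-/- libraries. Every Cxcr2-/- library was above every WT library. The rise was 1.62-fold (log2 fold change 0.70, SE 0.16, edgeR adjusted p = 0.00361).

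Prdx1, a main peroxiredoxin of the cytosol (ENSMUSG00000028691, chromosome 4, 116685544 to 116700822, plus strand), stood at 10.6, 11.8, 11.1 and 7.23 CPM in WT and at 10.8, 13.6, 19.1 and 22.8 CPM in Cxcr2-/- libraries. The genotypes overlapped, since Cxcr2-/- library 1 lay among the WT libraries, and libraries 3 and 4 carried the highest values. The estimate was close to that of Prdx3 but with a larger error (1.62-fold, log2 fold change 0.70, SE 0.22, edgeR adjusted p = 0.0207). The call rested on single libraries: the edgeR adjusted p was 0.0584 without WT library 4, 0.0577 without Cxcr2-/- library 3 and 0.0727 without Cxcr2-/- library 4. With the erythroid markers as a covariate the log2 fold change was 0.46, still past the test.

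Prdx6, a peroxiredoxin with a single reactive cysteine that also acts on phospholipids (ENSMUSG00000026701, chromosome 1, 161240112 to 161251219, minus strand), was the third enzyme by level. It stood at 192, 210, 227 and 203 CPM in WT and at 173, 159, 206 and 195 CPM in Cxcr2-/- libraries. The ranges overlapped, and the log2 fold change was -0.18 with a 95% interval of -0.41 to 0.04 (edgeR adjusted p = 0.170).

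Prdx2, a cytosolic peroxiredoxin best known from red blood cells (ENSMUSG00000005161, chromosome 8, 84969587 to 84974834, plus strand), was low, with 51 to 181 counts in a library. It stood at 2.50, 2.83, 2.91 and 2.40 CPM in WT and at 3.31, 1.41, 4.60 and 3.91 CPM in Cxcr2-/- libraries. Cxcr2-/- library 2 was below every WT library while the other 3 were above. The log2 fold change was 0.32 with a 95% interval of -0.32 to 0.95 (edgeR adjusted p = 0.408). Without Cxcr2-/- library 2 it was 0.57 with an edgeR adjusted p of 0.0380, the only 1 of 8 leave-outs to pass. Without Cxcr2-/- library 3 it was 0.11 with an edgeR adjusted p of 0.803. Prdx2 shares 351 bases on the opposite strand with Junb, which was far more abundant, at 2436, 2244, 1845 and 2481 CPM in WT and 710, 543, 921 and 851 CPM in Cxcr2-/- libraries. Whether reads were assigned by strand is not given in the sources used here, and the part of Junb in the Prdx2 counts was not tested. Prdx2 also shares 181 bases on the opposite strand with Rnaseh2a, which held 38 to 122 counts in a library.

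Prdx4, the peroxiredoxin of the endoplasmic reticulum (ENSMUSG00000025289, chromosome X, 155323918 to 155340754, minus strand), had 58 to 95 counts in a library. It stood at 1.70, 1.91, 1.74 and 2.60 CPM in WT and at 1.49, 1.60, 2.16 and 2.31 CPM in Cxcr2-/- libraries. The ranges overlapped almost fully (log2 fold change -0.07, 95% interval -0.58 to 0.44, edgeR adjusted p = 0.838).

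The superoxide dismutases parted, with Sod1 lower and Sod2 not past the test. Sod1, the copper and zinc enzyme of the cytosol (ENSMUSG00000022982, chromosome 16, 90220754 to 90226329, plus strand), stood at 21.7, 20.6, 19.0 and 19.3 CPM in WT and at 13.2, 12.2, 16.6 and 16.2 CPM in Cxcr2-/- libraries. Each Cxcr2-/- library was below every WT library. Sod1 fell by 0.47 on the log2 scale (SE 0.12, 1.39-fold lower, edgeR adjusted p = 0.00651). The adjusted p was 0.0969, at a log2 fold change of -0.51, with the share of read pairs outside genes as a covariate.

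Sod2, the manganese enzyme of the mitochondrial matrix and a classic NFkB target (ENSMUSG00000006818, chromosome 17, 13006846 to 13040063, plus strand), stood at 26.8, 26.6, 26.0 and 28.9 CPM in WT. In Cxcr2-/- libraries it stood at 24.9, 26.5, 38.0 and 32.7 CPM. WT libraries differed little, with a coefficient of variation of 4.67%, while Cxcr2-/- libraries 3 and 4 were above and libraries 1 and 2 within or below the WT range. The log2 fold change was 0.17 with a 95% interval of -0.11 to 0.45 (edgeR adjusted p = 0.299).

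Catalase (ENSMUSG00000027187, chromosome 2, 103453849 to 103485160, minus strand) stood at 14.5, 14.6, 13.8 and 10.7 CPM in WT and at 15.6, 14.3, 18.7 and 18.4 CPM in Cxcr2-/- libraries. Cxcr2-/- library 2 lay within the WT range and the other 3 above it. The log2 fold change was 0.32 with a 95% interval of 0.03 to 0.61 before adjustment (edgeR adjusted p = 0.0703). The edgeR adjusted p was 0.0404 without Cxcr2-/- library 2, 0.196 without Cxcr2-/- library 3 and 0.187 without Cxcr2-/- library 4. Of the 8 fits with 1 library left out, only that without Cxcr2-/- library 2 passed the test.

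**Figure D3:**
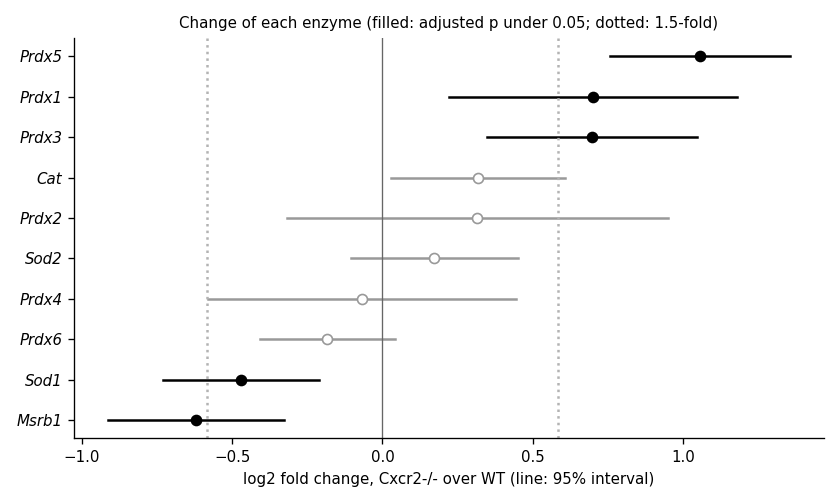
Log2 fold change of each enzyme, Cxcr2-/- over WT (horizontal axis), with its 95% interval as a line; filled points have an adjusted p under 0.05 and dotted lines mark a 1.5-fold change. Prdx5, at 1.06, lies farthest to the right and Msrb1, at -0.62, farthest to the left.

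Ratios of enzymes within a library do not depend on its depth or scaling. They were taken from counts, not corrected for gene length, so only their difference between genotypes is read. The 4 pairs were compared by two-sided exact permutation tests, whose smallest possible p with 4 against 4 libraries is 0.0286. The count ratio of Sod2 to Sod1 was 1.24 to 1.496 in WT and 1.88 to 2.29 in Cxcr2-/- libraries, with no overlap. Per kilobase of annotated exon, mean Sod1 stood above mean Sod2 in both genotypes, with overlapping ranges in Cxcr2-/- libraries. The geometric means of the count ratio were 1.34 and 2.08, a difference of 0.63 on the log2 scale (SE 0.09, exact p = 0.0286, 0.0571 adjusted over the 4 pairs).

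The ratio of catalase to Prdx6 was 0.0528 to 0.0756 in WT and 0.0898 to 0.0944 in Cxcr2-/- libraries, also with no overlap. The difference was 0.51 on the log2 scale (SE 0.11, exact p = 0.0286, 0.0571 adjusted). Neither ratio passed 0.05 after adjustment. The ratio of Prdx5 to Prdx3 differed by 0.38 (SE 0.25, exact p = 0.171, 0.229 adjusted) and that of Prdx1 to Prdx2 by 0.48 (SE 0.36, exact p = 0.229, 0.229 adjusted), so these mitochondrial and cytosolic pairs were not separated beyond their spread.

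Levels between genes were compared per kilobase of annotated exon (RPKM). In both genotypes the order began with Msrb1, at 1250 ± 242 RPKM in WT and 813 ± 41.8 RPKM in Cxcr2-/- neutrophils, then Prdx5, at 173 ± 27.3 and 360 ± 48.9 RPKM, and Prdx6, at 43.3 ± 3.08 and 38.2 ± 4.42 RPKM. None of these 3 overlapped its neighbour in the order. Catalase came next at 5.14 and 6.41 RPKM, and Prdx4 and Prdx2 were last, at 0.873 to 1.08 RPKM. In WT, catalase overlapped with Sod1 and with Prdx3, and Prdx3, Prdx1 and then Sod2 overlapped in turn, so their order is not fixed by these libraries. In Cxcr2-/- neutrophils the ranges from catalase through Prdx3, Prdx1, Sod1 to Sod2 overlapped each with the next. Sod1 stood above Prdx3 and Prdx1 in the WT order and below both in the Cxcr2-/- order. The lengths cover every annotated exon, among them the long 3' end of Sod2, so RPKM understates genes of which neutrophils use a shorter form.

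Cxcr2-/- libraries 3 and 4 differed from the other 2 across most enzymes. In libraries 3 and 4 lay the 2 highest Cxcr2-/- values of Prdx1, Prdx2, Prdx3, Prdx4, Prdx6, Cat, Sod1 and Sod2, 8 of the 10, where 28.8% of all tested genes showed that order. Prdx5 and Msrb1 were highest in library 1 instead. The same 2 libraries held the most RNA of the primary granule genes Mpo, Elane, Prtn3 and Ctsg, which promyelocytes make, at 208 and 351 CPM summed, against 53.4 and 54.7 CPM in Cxcr2-/- libraries 1 and 2 and 2.40 to 12.5 CPM in WT. They also held the most haemoglobin RNA, at 10.7 CPM in each against 1.22 to 3.98 CPM in the other 6. The part of either in the enzymes' levels was not tested.

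Left without libraries 3 and 4, a setting added after their values were seen, 3 of the 5 called enzymes still passed the test. Prdx5, at 1.13, and Msrb1, at -0.60, stayed close to their values, and Sod1 moved from -0.47 to -0.68 on the log2 scale. Prdx1 had a log2 fold change of 0.24 (edgeR adjusted p = 0.335), and Prdx3 had 0.45 (edgeR adjusted p = 0.0604). Prdx6 passed at -0.34 (edgeR adjusted p = 0.0319). Prdx2, at -0.19, and Sod2, at -0.09, changed sign without passing.

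**Figure D4:**
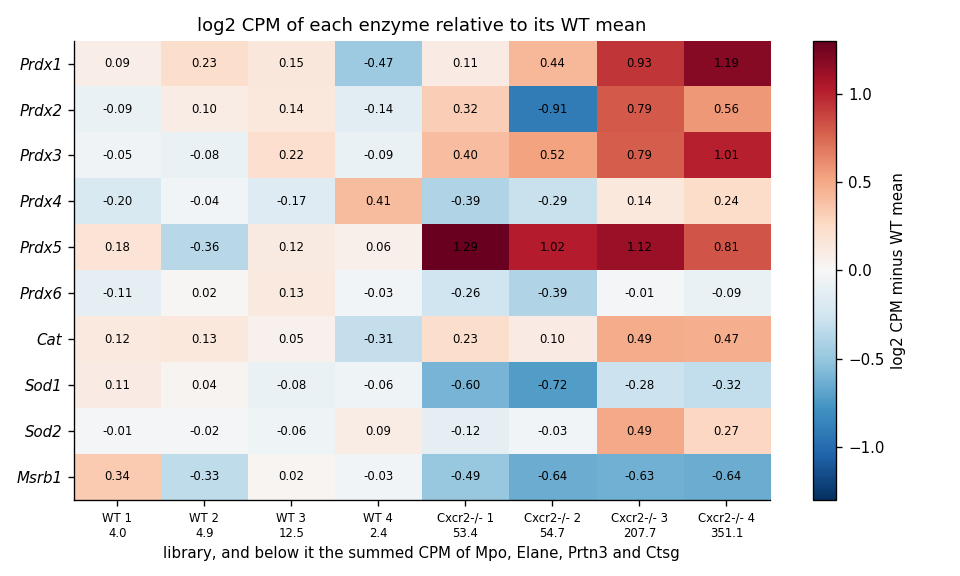
Log2 CPM of each enzyme (rows) in each library (columns) minus the mean of its 4 WT libraries; red is above and blue below that mean, and the number under each library is the summed CPM of Mpo, Elane, Prtn3 and Ctsg. Prdx5 is red and Msrb1 blue across all 4 Cxcr2-/- libraries, while Prdx1 rises from 0.11 to 1.19 between Cxcr2-/- libraries 1 and 4.

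The genes that keep peroxiredoxins working moved in both directions. Of 11 genes of thioredoxin-based reduction, 3 were higher, 5 lower and 3 did not pass, with a median log2 fold change of -0.15. Txndc17, a thioredoxin-like protein, rose from 17.3 ± 3.06 to 33.97 ± 2.63 CPM (log2 fold change 0.97), the mitochondrial thioredoxin Txn2 by 0.79 and the thioredoxin reductase Txnrd1 by 0.51. Txnip, which binds and restrains thioredoxin, fell by 1.19 on the log2 scale, from 1500.3 ± 339 to 659.7 ± 115 CPM. Srxn1, sulfiredoxin, which rescues overoxidised peroxiredoxins, fell from 6.14 ± 0.525 to 2.93 ± 1.09 CPM and the sestrin Sesn2 from 140 ± 16.9 to 84.1 ± 5.62 CPM, log2 fold changes of -1.06 and -0.74. Thioredoxin itself, Txn1, stood at 342 ± 69.0 and 406 ± 16.7 CPM (edgeR adjusted p = 0.161).

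A list of 15 other genes held enzymes that act on peroxide, superoxide or oxidised methionine, and beside them Ccs, Gsr and the glutaredoxins. Of these 15 genes, 12 were tested, of which 5 were higher, 1 lower and 6 did not pass, at a median of 0.15. Gpx1, the cytosolic glutathione peroxidase and like Msrb1 a selenoprotein, rose from 348 ± 59.1 to 647 ± 61.7 CPM (log2 fold change 0.89). Msrb2, the mitochondrial relative of Msrb1, rose by 0.82, from 9.49 to 16.7 CPM, and so moved opposite to Msrb1. Ccs, which loads copper into Sod1, rose by 0.56 while Sod1 fell. Gsr, glutathione reductase, fell by 0.35 on the log2 scale. Sod3, Gpx7 and Gpx8 were too low to test.

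Msrb1 belongs to the selenoproteins. A list of 17 other genes of that kind and of the selenocysteine machinery held 5 higher, 4 lower and 8 that did not pass, at a median of 0.00. The list does not hold every selenoprotein, since Gpx1, for example, was counted in the list above. Sephs2, which makes the selenium donor, fell from 230 ± 52.1 to 96.2 ± 9.95 CPM (log2 fold change -1.26, edgeR adjusted p = 2.93e-05). Selenon fell by 1.41 and Selenop by 0.96 on the log2 scale. Selenoh rose by 1.85 from a low level, Selenof by 0.81 and Selenos by 0.73. The fall of Msrb1 therefore stood beside selenoprotein RNAs that went both ways.

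Catalase works in peroxisomes, and of 21 peroxisome genes 20 were tested, with 6 higher, 1 lower and 13 not past the test, at a median of 0.18. The transporter Abcd3 rose most, from 6.71 ± 0.743 to 13.2 ± 1.81 CPM (log2 fold change 0.98), followed by Pex14 at 0.64 and Pex2 at 0.45. Pex10 fell by 0.43. At the source of superoxide, 6 of 8 NADPH oxidase genes were higher, at a median of 0.64. Cybb, the catalytic subunit, rose from 1258 to 2727 CPM (log2 fold change 1.12), Cyba by 0.74 and Ncf4 by 0.72. These values are RNA levels and do not measure superoxide. By flow cytometry, the authors found fewer ROS-positive and fewer mitochondrial superoxide-positive cells among spleen Cxcr2-/- neutrophils. A link between those measurements and the oxidase RNA was not tested.

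The 2 regulators best known for these enzymes were described by their own genes. Of 15 genes of the Nrf2 response, 8 were higher, 6 lower and 1 did not pass, at a median of 0.25. G6pdx, at 1.58, Me1, at 1.52, and Gclm, at 1.48, rose most on the log2 scale, and Slc7a11, at -2.93, Srxn1, at -1.06, and Gclc, at -0.95, fell most. Of 14 NFkB feedback genes and targets, 11 were lower and 3 higher, at a median of -0.69. Bcl2a1b, at -2.37, Nfkbiz, at -1.58, and Tnfaip3, at -1.51, fell most, and Nfkbib, at 0.89, Bcl3, at 0.69, and Nfkb1, at 0.34, rose. Sod2, counted among the enzymes, had a log2 fold change of 0.17 beside them. In all, 63 of the 95 companion genes tested passed, or 66.3%, against 44.7% of all genes. The share was uneven: all 14 NFkB genes passed, while 13 of 20 peroxisome genes and 8 of 17 selenoprotein genes did not. The lists were chosen with earlier results of these data known, so the pooled share is not read as a result about the companions. With the share of read pairs outside genes as a covariate 28 passed, or 29.5%, against 18.4% of all genes.

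**Figure D5:**
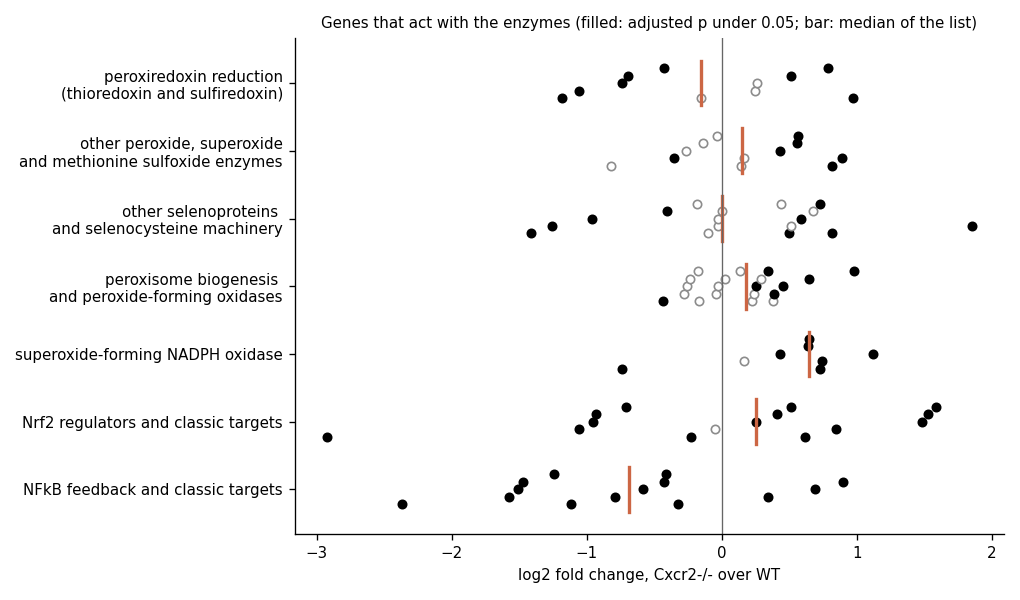
Log2 fold change, Cxcr2-/- over WT (horizontal axis), of each tested gene of 7 companion lists (rows); filled points have an adjusted p under 0.05 and the orange bar is the median of the list. Medians run from -0.69 for the NFkB list to 0.64 for the NADPH oxidase.

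The genes whose pattern over the 8 libraries lay nearest to Prdx5 were Pglyrp1, Ap2s1 and Mapk13. Their log2 CPM, centred on the WT mean, differed from that of Prdx5 by a root mean square of 0.06, 0.08 and 0.08 among 4135 genes compared. Pglyrp1, a peptidoglycan-binding granule protein, stood at 801 ± 121 and 1641 ± 194 CPM. Nearest to Msrb1 were Taldo1, of the pentose phosphate pathway, Adipor1 and Lsp1, at 0.05, 0.06 and 0.08. Taldo1 fell from 989 ± 148 CPM in WT to 662 ± 34.5 CPM.

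Near-identical copies, with at least 95% identity over 150 bases, were annotated for Prdx1, Prdx2 and Sod1, and held 7, 2 and 4 counts over all libraries, against 4342, 970 and 5672 for the enzymes. Prdx5 shared 409 bases on the opposite strand with Trmt112, which held 374 to 677 counts in a library where Prdx5 held 13273 to 35415. Sod1 overlapped Scaf4 on the opposite strand, with no exon in common.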

How the data were processed

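The deposited files held raw counts of read pairs per gene, 1 file a library, which the authors made by STAR alignment to mm10 and HTSeq counting of rRNA-depleted directional libraries. The strand setting is not given in the sources used here. Of the 52081 identifiers found in GENCODE M21, 99.9% carried a later version in the deposited files than in M21. Gene names, lengths and coordinates came from M21, so RPKM and overlaps rest on an older annotation than the counts. CPM were computed with TMM scaling. Genes kept by filterByExpr were fitted with edgeR 4.0.16 (glmQLFit, no covariate, Benjamini-Hochberg) in R 4.3.3, with DESeq2 1.42.0 as an alternative, and the fit was tested on simulated data. Replicates of 1 group differed beyond sampling noise. Genes named were all 10 enzymes, the 3 largest changes in each direction of each companion list among those past the test, and the 3 nearest patterns, for Prdx5 and Msrb1. Txn1 and the marker genes printed were named by role. Enzymes and lists were chosen with earlier results of these data known. Other settings were scalings, filters, covariates, thresholds, pseudocounts and left-out libraries. A gene of the companion lists, counted in their totals, is not reported here.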

Additional observations from a re-analysis of the deposited data

Results flagged for a closer look

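In 28 groups of 4 libraries examined for a library far from the other 3, 2 were marked, where chance marks about 1 group in 20. Prdx3 in WT library 3 stood at 6.71 CPM, above the 5.41 to 5.57 CPM of the other WT libraries. Msrb1 in Cxcr2-/- library 1 stood at 1102 CPM, above the 992 to 1005 CPM of the other Cxcr2-/- libraries.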

How the results depend on the processing

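With the share of read pairs outside genes as a covariate, 3 enzymes passed the test (5 in the report) and 28 companion genes (63), while all genes past the test went from 7495 to 3083, and the cause was not tested. At 1.5-fold, 4 enzymes became 2 with the erythroid covariate, 2 without Cxcr2-/- replicate 4 and 1 at a threshold of 2-fold. Leaving out 1 library gave 4 to 7 enzymes past the test (7 without Cxcr2-/- replicate 2), 2 to 4 at 1.5-fold and 55 to 61 companion genes. The same step gave log2 differences of 0.59 to 0.68 for Sod2 to Sod1, 0.42 to 0.59 for Cat to Prdx6, 0.19 to 0.70 for Prdx1 to Prdx2 and 0.21 to 0.57 for Prdx5 to Prdx3. Prdx4, never past the test, changed sign to 0.28 with the covariate for pairs outside genes, 0.0869 without WT replicate 4, 0.0369 without Cxcr2-/- replicate 1 and 0.0081 without Cxcr2-/- replicate 2. Without Cxcr2-/- libraries 3 and 4, Prdx2 stood at -0.19 and Sod2 at -0.0919. Upper-quartile scaling shifted the median of all genes to -0.11, and no scaling changed the sign of an enzyme.

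Same-numbered libraries did not deviate together (correlations 0.12, -0.19, 0.16 and -0.26), so the numbers were not taken as pairs. With a replicate block, 7068 genes passed in place of 7495, Prdx1 had an adjusted p of 0.0517, and the ratios of Sod2 to Sod1 (0.63) and Cat to Prdx6 (0.51) had an exact sign-flip p of 0.125, the smallest that 4 pairs allow.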
